A study of Mus musculus with 12 samples.

Results

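Macrophages labelled Samhd1 Sting dKO, a double knockout of SAMHD1 and STING, were compared with WT macrophages in 6 of the 12 libraries of the series, 3 per group. Messenger RNA came from peritoneal macrophages of C57BL/6 mice that had been sorted by FACS and was read with a strand-specific, poly-dT-enriched library. All 6 libraries of the comparison came from females, with a labelled age of 24, 16 and 18 in Samhd1 Sting dKO replicates 1, 2 and 3 and of 16 in each WT library; the labels give no unit of age, no allele, and no word on whether replicates are separate animals or pools, so p-values measure the spread between these libraries. The remaining libraries, 3 of Samhd1 Cardif dKO (Cardif is another name of MAVS) and 3 of Samhd1 KO, were also from C57BL/6 mice, entered the same fit and served to test where Samhd1 Sting dKO differed from the other mutants. The 3 Samhd1 KO libraries came from females, with a labelled age of 19, 18 and 16 in replicates 1, 2 and 3. Samhd1 Cardif dKO replicates 1, 2 and 3 had a labelled age of 18, 18 and 16. Replicate 1 of that group was male, and replicates 2 and 3 were female. Of 15721 genes in the table, 13231 reached 10 normalized reads in 3 or more of the 12 libraries and were tested. Normalized reads are reads per gene divided by 1 size factor per library. A gene is called when limma's test on log2(normalized reads + 1), adjusted by Benjamini-Hochberg over all 13231 genes, gave a value under 0.05, and log2 changes are on that scale, which understates changes of genes with few reads.

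SAMHD1 breaks down deoxynucleotides and acts on nucleic acids at stalled replication forks. Cells that lack it can accumulate self DNA, which the sensor cGAS detects by making the messenger cGAMP. STING binds cGAMP at the endoplasmic reticulum and activates the kinase TBK1 and the factor IRF3, which leads to type I interferon. Secreted interferon then acts through its receptor IFNAR on interferon-stimulated genes, many of which resident macrophages also express at a tonic level without infection.

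The gene named first by the genotype was lower. Samhd1 (ENSMUSG00000027639) was at 3196, 3291 and 4563 normalized reads in Samhd1 Sting dKO libraries and at 11525, 10113 and 10644 in WT libraries, a log2 change of -1.56 (SE 0.167, adjusted p = 0.000877). All 3 Samhd1 Sting dKO libraries were below all WT libraries, and the gene was read in each of them. Tmem173 (ENSMUSG00000024349), which encodes STING, was at 577, 538 and 539 normalized reads in Samhd1 Sting dKO libraries and at 537, 481 and 548 in WT libraries. The groups overlapped (log2 change 0.08, SE 0.084, adjusted p = 0.622), so gene-level reads do not check the Sting part of the label. Mavs, which was not targeted in this genotype, had a log2 change of 0.08 (adjusted p = 0.711).

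The 6 libraries held between 19294490 and 21000618 reads in Samhd1 Sting dKO and between 24311188 and 32204657 reads in WT, and 15350 to 15470 genes had a read in each. Markers of macrophages were present throughout. Itgam, Emr1 (F4/80), Csf1r, Lyz2, Cd14, Mertk, Icam2, Gata6 and Timd4 were read in every library, and none of these 9 markers was called between the groups. Mertk (log2 change -0.52, adjusted p = 0.0561) and Emr1 (-0.27, adjusted p = 0.196) were lower in each Samhd1 Sting dKO library than in any WT library. B cell markers set the libraries apart from each other. Summed over the 24 B cell markers in the table, Samhd1 Sting dKO libraries had 10580.0, 8120.1 and 6001 normalized reads, against 4799.6, 3391 and 4113 in WT libraries. WT replicate 2 had the lowest WT value for 77 of 93 type I interferon response genes. WT replicate 3 had the lowest WT value for all 33 mitosis genes.

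Over all tested genes, 472 were higher in Samhd1 Sting dKO than in WT, which is 3.57% of those tested, and 388 were lower, which is 2.93%. The 860 genes called in either direction are 6.5% of those tested, and at an unadjusted p under 0.05 limma gave 12.1% higher and 10.3% lower. A change of over 2-fold was seen in 132 of the higher and 69 of the lower genes. The median log2 change of all genes was -0.00 and the median SE was 0.135. The groups did not overlap, with every Samhd1 Sting dKO library above every WT library, for 1935 genes (14.6%), and with every one below for 1834 genes (13.9%). The numbers of calls rest on few libraries. Without WT replicate 1, 2 or 3, limma called 196, 210 and 205 genes higher and 162, 213 and 156 lower, while leaving out replicate 2 or 3 of Samhd1 Sting dKO gave 293 and 247 higher and 242 and 207 lower. With the labelled age as a covariate, 211 genes were higher and 212 lower. With the mean of the B cell markers as a covariate, 67 were higher and 74 lower. That mean, on the log2 scale, was 7.85, 7.47 and 6.74 in Samhd1 Sting dKO libraries and at most 6.35 in any other library. It thus follows the genotype, and calls can be lost under it for that reason alone. Here and below, B cell content and genotype cannot be told apart with this covariate.

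**Figure D1:**
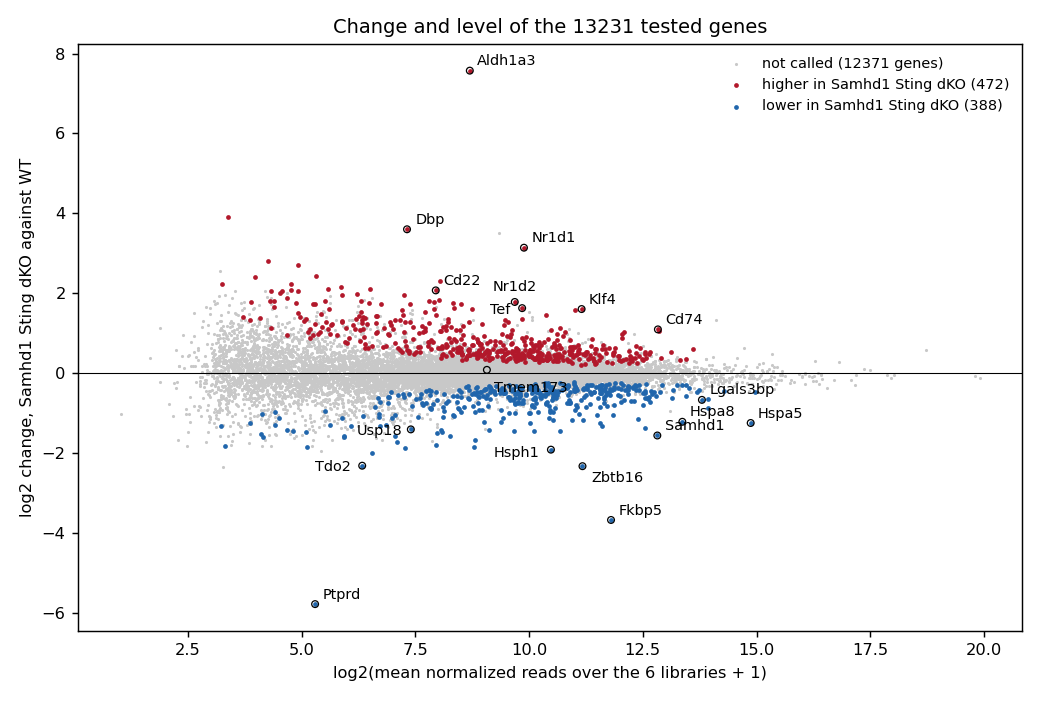
Each point is 1 of the 13231 tested genes, with its mean level over the 3 Samhd1 Sting dKO and 3 WT libraries on the horizontal axis (log2 of mean normalized reads plus 1) and its log2 change, Samhd1 Sting dKO against WT, on the vertical axis. Red points are the 472 genes called higher in Samhd1 Sting dKO, blue points the 388 called lower and grey points the rest; Aldh1a3 stands highest at 7.57, and among the called genes Ptprd, at 1 read over the Samhd1 Sting dKO libraries, and Fkbp5 (-3.68) stand lowest.

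The largest rise was that of Aldh1a3, which encodes a dehydrogenase that makes retinoic acid from retinaldehyde. Aldh1a3 (ENSMUSG00000015134, chromosome 7) was at 596, 1308 and 566 normalized reads in Samhd1 Sting dKO libraries, against 2.84, 5.73 and 1.48 in WT libraries, which come from 3, 6 and 2 reads. Every Samhd1 Sting dKO library stood far above every WT library, and replicate 2 was the highest. The log2 change was 7.57 (SE 0.412, adjusted p = 5.05e-06), 6.55 with a pseudocount of 5, and all 25 alternative settings called the gene. The other mutants were also near 0, at 6.15, 5.02 and 6.06 normalized reads in the Samhd1 Cardif dKO libraries and at 3.30, 2.06 and 1.89 in those of Samhd1 KO. The difference from each was itself called, at a log2 change of 6.83 against Samhd1 Cardif dKO (adjusted p = 1.68e-05) and 7.83 against Samhd1 KO (adjusted p = 3.45e-06).

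Genes of the type I interferon response were on balance below WT in Samhd1 Sting dKO, in small steps. Of 93 tested genes of this list, 0 were called higher and 11 were called lower, against 2.93% of all genes called lower. A total of 77 had a negative log2 change and 16 a positive one, and the list median was -0.33, against -0.00 for all genes. The mean log2 level of the 93 genes was 9.05, 9.17 and 9.17 in Samhd1 Sting dKO libraries and 9.69, 9.22 and 9.53 in WT libraries, so that the groups did not overlap but WT replicate 2 lay close to the Samhd1 Sting dKO values. Against the same WT libraries, the Samhd1 Cardif dKO libraries gave a list median of 0.08 and 0 calls, against 0.348% and 0.71% of all genes higher and lower, and Samhd1 KO gave a median of 0.71 with 61 genes higher, against 2.71% of all genes. The 3 comparisons share their WT libraries. DESeq2 called 22 of the 93 lower, against 561 of all genes. Limma called 5 with age as a covariate, against 212 of all genes, and 23 with the mitosis list mean, against 353 of all genes. Left out one at a time, WT replicate 2 raised the 11 calls to 20, while WT replicates 1 and 3 and Samhd1 Sting dKO replicate 1 lowered them to 6, and Samhd1 Sting dKO replicate 3 and Samhd1 KO replicate 2 lowered them to 7.

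By role, the ubiquitin-like conjugation genes held more of the 11 calls than any other role in the main fit. All 13 of them had a negative change, 4 were lower, against 2.93% of all genes, and 9 lay lower with no overlap between the groups, against 13.9% of all genes. Herc6, which in mice is the main ligase that attaches ISG15 to proteins, was at 400.2, 466 and 460.3 normalized reads in Samhd1 Sting dKO libraries and at 751, 627 and 697 in WT libraries (log2 change -0.64, SE 0.103, adjusted p = 0.00512). Its groups did not overlap. Isg15 itself was at 58.3, 60.7 and 60.8 normalized reads in Samhd1 Sting dKO libraries and at 114, 68.7 and 118 in WT libraries. It too lay lower in every Samhd1 Sting dKO library, but it did not pass the test (log2 change -0.69, adjusted p = 0.122). The ubiquitin ligase genes Trim30a (-0.41), Rnf213 (-0.68) and Trim30d (-0.49) made up the rest of the 4. Of 25 alternative settings, 24 kept the call of Herc6, 24 that of Trim30a, 12 that of Trim30d and 11 that of Rnf213. The lead of this role thus rests on calls that many settings lost.

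Among 14 signalling and transcription genes, the negative regulator Usp18 was the 1 called lower, against 2.93% of all genes. Usp18, which removes ISG15 from proteins and blocks the interferon receptor, was at 78.1, 105 and 85.9 normalized reads in Samhd1 Sting dKO libraries and at 283, 163 and 291 in WT libraries (log2 change -1.41, SE 0.254, adjusted p = 0.00874). All Samhd1 Sting dKO values were below the lowest WT value, that of replicate 2. The transcription factor gene Irf7 overlapped between the groups, with a log2 change of -0.46 (adjusted p = 0.261). None of 11 RNA and DNA sensors on the list was called (median -0.30).

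Of 15 secreted and surface proteins on the list, 2 were lower, against 2.93% of all genes. Lgals3bp, a secreted glycoprotein that binds galectins, was at 10833, 11889.9 and 10229.8 normalized reads in Samhd1 Sting dKO libraries, against 18759, 15648 and 18146 in WT libraries (log2 change -0.67, SE 0.0941, adjusted p = 0.00293). The groups did not overlap. Ifi27l2a was at 826, 972 and 751 normalized reads in Samhd1 Sting dKO libraries and at 3531, 1582 and 2193 in WT libraries (log2 change -1.45, SE 0.253, adjusted p = 0.00761). Its neighbour Ifi27l2b had the same change (-1.45), but these genes are near copies whose reads the authors' counting could split, so they are not separate results.

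Of 18 genes that block translation or degrade RNA, 17 had a negative change and 2 were lower, against 2.93% of all genes. Oas2, which makes the activator of RNase L, was at 2029.6, 2926 and 2119 normalized reads in Samhd1 Sting dKO libraries and at 6121, 3399 and 5353 in WT libraries (log2 change -1.05, SE 0.248, adjusted p = 0.0288). Oas1g, of the same family, was at 237, 357 and 216 in Samhd1 Sting dKO libraries and at 594, 352 and 519 in WT libraries (log2 change -0.85, adjusted p = 0.0398). Oas2 did not overlap between the groups, and Oas1g did, through Samhd1 Sting dKO replicate 2 and WT replicate 2. Oas3 missed the threshold (log2 change -0.87, adjusted p = 0.0533). Of 22 antiviral effectors, 2 were lower, against 2.93% of all genes. These 2 were the interferon-inducible gene Gm4951 (-1.12) and Rsad2, which encodes viperin (-1.07, adjusted p = 0.0495). The call of Rsad2 held in 5 of 25 alternative settings and was lost without WT replicate 1 or 3, any 1 Samhd1 Sting dKO or Samhd1 KO library, or Samhd1 Cardif dKO replicate 2 or 3. The Oas1 and Trim30 genes also stand in families of near copies; the sources used here do not say how reads were divided among them.

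**Figure D2:**
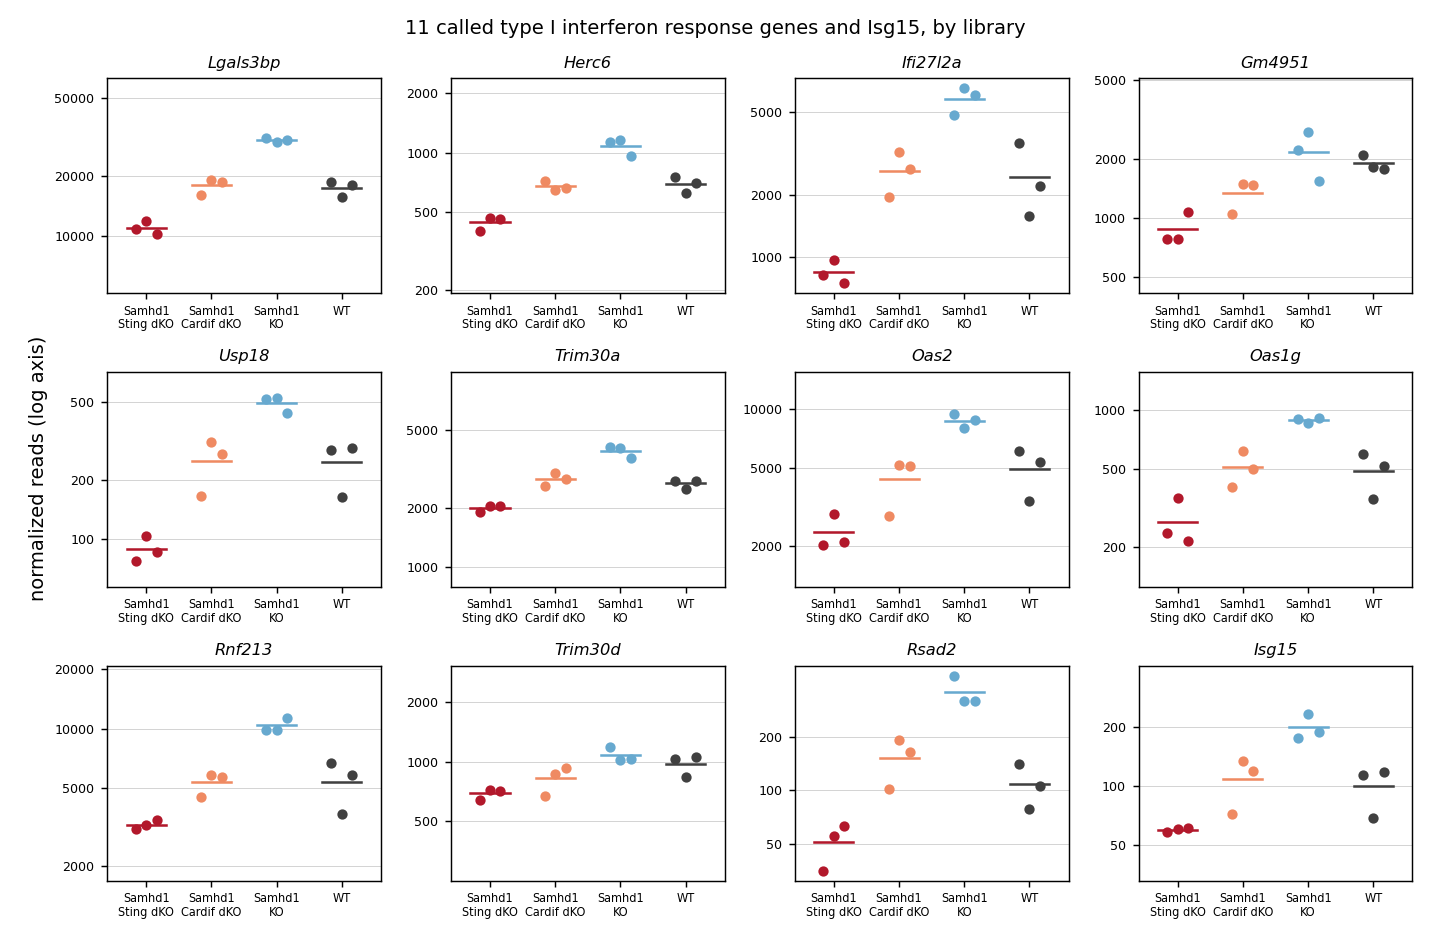
Normalized reads on a log axis for the 11 type I interferon response genes called lower in Samhd1 Sting dKO against WT, and for Isg15, which was not called. Each point is 1 library, 3 per genotype, and the short line is the group mean; in each panel the mean of Samhd1 Sting dKO is the lowest and that of Samhd1 KO the highest of the 4 genotypes, and for Oas1g the Samhd1 Sting dKO and WT points overlap.

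The interferon-stimulated response element is the site through which interferon acts on these promoters. Its core, a pair of GAAA spaced by NN, was searched on both strands in the 250 bases before each RefSeq gene start (GRCm38.p6), and 2.98% of 32851 promoters held it. RefSeq promoters were matched for 7 of the 14 called genes of the interferon and GTPase lists, under the 80% needed for a share, so none is given. The windows of Trim30a and Oas1g are shown because both genes fell and each carries the core near its start. Both windows are on the minus strand and written 5′ to 3′ toward the gene, that of Trim30a at chr7:104465200-104465249 and that of Oas1g at chr5:120887614-120887651. Capitals mark the core, which stands in reverse complement in Trim30a and as a pair of overlapping matches in Oas1g. A match is a description of the letters only.
Trim30a: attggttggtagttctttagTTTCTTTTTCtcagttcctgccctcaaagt
Oas1g: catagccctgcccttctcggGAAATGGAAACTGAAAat

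The interferon-inducible GTPases, which coat and disrupt the vacuoles of intracellular pathogens, had a list median of -0.48 over 19 tested genes. Of these, 18 had a negative change, 11 lay lower in every Samhd1 Sting dKO library than in any WT library, against 13.9% of all genes, and 3 were called lower, against 2.93%. They were the very large GTPase genes Gm4070 (-0.82) and Gvin1 (-0.65), which are near copies of each other, and Gbp8. Of the 19, edgeR called 1 lower and DESeq2 called 4. The call of Gm4070 held in 22 of 25 alternative settings, that of Gvin1 in 12 of 25 and that of Gbp8 in 12 of 24. That of Gbp8 was lost without any 1 WT or Samhd1 Sting dKO library. Gbp8 was at 6.60, 6.75 and 9.54 normalized reads in Samhd1 Sting dKO libraries and at 34.1, 22 and 17.8 in WT libraries (log2 change -1.54, SE 0.387, adjusted p = 0.0359). The groups did not overlap, at low levels in both. In MHC class I and antigen processing, 24 of 26 genes had a negative change (median -0.15). Limma called 0 of them, against 2.93% of all genes lower, and edgeR called 0, against 327 of all genes lower. DESeq2 called 4 lower, against 561 of all genes. At an unadjusted p under 0.05, limma had 7 lower, against 10.3% of all genes.

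Of 39 genes of nucleic acid sensing and signalling, 3 were called, a share near the 6.5% of all genes called in either direction. Besides Samhd1, Ifnar2, a chain of the interferon receptor, was lower (log2 change -0.27, adjusted p = 0.0380), and Irf5, a transcription factor downstream of Toll-like receptors, was higher (0.36, adjusted p = 0.0316). For Irf5 the Samhd1 Sting dKO libraries had 5369, 4619 and 5042 normalized reads, against 4154, 3419 and 4154 in WT libraries. The call of Ifnar2 held in 11 and that of Irf5 in 16 of 25 alternative settings. The list median was -0.07.

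Set against the other mutants, the interferon response of Samhd1 Sting dKO was below that of Samhd1 KO. Of the 93 genes, 73 were lower in Samhd1 Sting dKO than in Samhd1 KO (median -0.97), against 2.89% of all genes lower in that comparison, and 0 were higher, against 2.77%. With the mean of the B cell markers as a covariate, 12 of the 93 were called lower. Of the 19 GTPases, 18 were lower, and of the 26 class I genes 16 were. Against Samhd1 Cardif dKO, 7 of the 93 genes were lower (median -0.37), against 0.0907% of all genes, and 0 were higher, against 0.189%. These 7 were Usp18, Oas3, Oasl1, Herc6, Trim30a, Ifi27l2a and Lgals3bp. The count of 7 depended on the tool and on single libraries: edgeR called 0 and DESeq2 16, limma with age as a covariate called 0, and without 1 library limma called from 0 (without WT replicate 3, Samhd1 Cardif dKO replicate 2 or 3, or Samhd1 Sting dKO replicate 1) to 11 (without WT replicate 2). Libraries of Samhd1 Cardif dKO were of mixed sex, with replicate 1 labelled male.

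B cell genes were higher in Samhd1 Sting dKO. All 23 tested markers had a positive change, 8 were called, against 3.57% of all genes called higher, and the median was 1.42. Cd22, an inhibitory receptor of B cells, was at 504, 413 and 279 normalized reads in Samhd1 Sting dKO libraries and at 96.6, 71.6 and 110.4 in WT libraries (log2 change 2.07, SE 0.346, adjusted p = 0.00603). Ms4a1, which encodes CD20, was at 671, 502 and 315 in Samhd1 Sting dKO libraries and at 199.8, 101 and 134 in WT libraries (1.76, adjusted p = 0.0246). Replicate 3 was the lowest Samhd1 Sting dKO library in both, yet above all of WT. The other called markers were Btla (2.15), Ebf1 (1.61), Cd79b (1.64), the immunoglobulin heavy chain gene listed as Igh-6 (1.46), Fcer2a (2.22) and Cr2 (2.40, called in 7 of 23 alternative settings). The defining marker Cd79a (1.22, adjusted p = 0.0963) missed the threshold, with groups that did not overlap. No B cell marker was at 0 in any of the 6 libraries. DESeq2 called 14 of the 23 higher, against 744 of all genes, and limma with age as a covariate 2, against 211 of all genes. The 8 calls became 4, 2 and 2 without WT replicate 1, 2 or 3, and 3 without Samhd1 Sting dKO replicate 1 or 2. In sorted bulk RNA, a different number of B cells and a different amount of RNA per cell cannot be told apart.

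Markers of T and NK cells, mast cells, neutrophils, red cells and platelets were not called. The 2 tested T and NK cell markers, 9 mast cell, eosinophil and basophil markers, 8 neutrophil markers and 2 red cell and platelet markers gave 0 calls by limma, edgeR or DESeq2, and 0 at an unadjusted p under 0.05 by limma. At that unadjusted p, edgeR had both T and NK cell markers and 1 mast cell marker higher, and DESeq2 had 1 of each higher. The 16 T and NK cell genes in the table summed to 147 to 288 normalized reads in Samhd1 Sting dKO libraries and 106 to 174 in WT libraries. The keratin gene Krt7, the only tested mesothelial marker, was lower (-0.76, adjusted p = 0.0227).

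MHC class II genes, which present peptides on macrophages, dendritic cells and B cells, lay higher. All 10 tested genes had a positive change (median 0.93), 9 lay higher with no overlap between the groups, against 14.6% of all genes, and 3 were called higher, against 3.57%. Cd74, the invariant chain, was at 13496, 7373 and 9174 normalized reads in Samhd1 Sting dKO libraries and at 4488, 4204 and 4979 in WT libraries (log2 change 1.09, SE 0.269, adjusted p = 0.0332). H2-Eb1, a class II beta chain, was at 2362, 1462 and 1994 in Samhd1 Sting dKO libraries and at 927, 842 and 939.8 in WT libraries (1.08, adjusted p = 0.0272). H2-Ob, a chain of the editor H2-O that B cells express, rose by 0.62 on the log2 scale. H2-Aa (0.88) and H2-Ab1 (0.80) had adjusted p = 0.0665 and 0.0912. B cell markers were higher in the same libraries, as given above. With their mean as a covariate, Cd74 was at 0.44 (adjusted p = 0.64), H2-Eb1 at 0.57 (adjusted p = 0.521) and H2-Ob at 0.18 (adjusted p = 0.729), and with age as a covariate none of the 3 was called either. Of the 23 tested B cell markers, 19 were called higher in Samhd1 Sting dKO than in Samhd1 KO, against 2.77% of all genes. In that comparison Cd74 had a log2 change of -0.18 (adjusted p = 0.762) and H2-Eb1 of -0.13 (adjusted p = 0.813), while H2-Ob (1.04), H2-DMb2 (1.54) and H2-Oa (1.90) were higher.

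**Figure D3:**
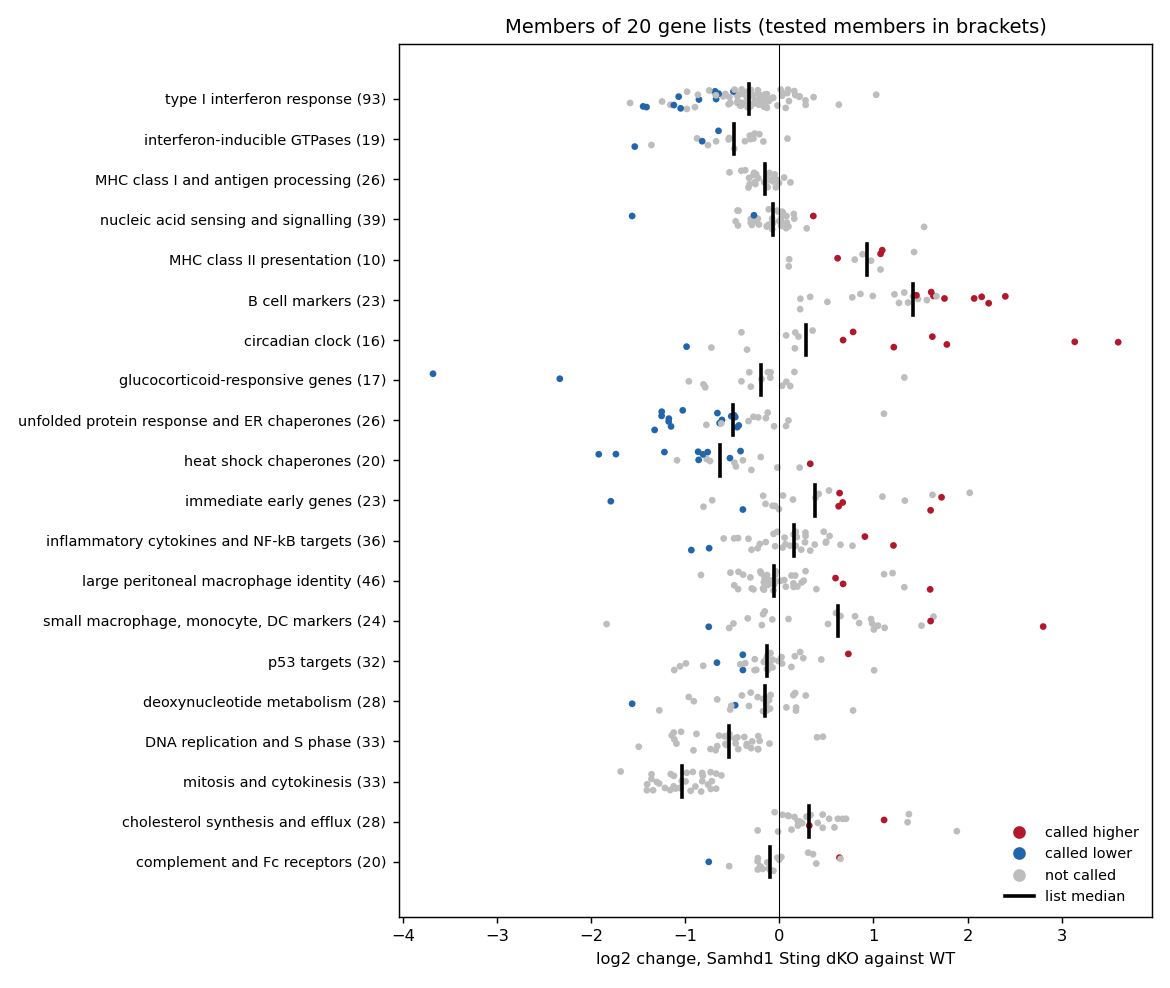
Log2 change, Samhd1 Sting dKO against WT, of each tested member of 20 gene lists, with the number of tested members in brackets. Red points were called higher, blue points called lower and grey points not called, and the black bar is the list median; B cell markers (median 1.42) and class II genes (0.93) lie right of 0, and the unfolded protein response (-0.49), heat shock (-0.63) and interferon lists (-0.33) lie left of it.

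The circadian clock of a cell is a loop in which CLOCK and ARNTL drive the Per, Cry and Nr1d genes through E-boxes, and the proteins of these genes in turn repress ARNTL or its activity. Output factors of the PAR bZIP family, DBP and TEF, act on D-boxes, where NFIL3 opposes them. In Samhd1 Sting dKO, 7 of 16 tested clock genes were higher, against 3.57% of all genes, and 1 was lower, against 2.93%, with a list median of 0.28; with the B cell marker mean as a covariate 3 were higher. Dbp was at 265, 309 and 299 normalized reads in Samhd1 Sting dKO libraries, against 40.7, 19.1 and 15.6 in WT libraries (log2 change 3.60, SE 0.437, adjusted p = 0.00132). Nr1d1, which encodes REV-ERB alpha, was at 1707, 1786 and 1596 in Samhd1 Sting dKO libraries and at 152, 212 and 217 in WT libraries (3.14, SE 0.505, adjusted p = 0.00522). In both genes the 3 Samhd1 Sting dKO libraries lay close together and far above WT. Whether the authors' counting used strand is not given, and the oppositely oriented neighbours Thra of Nr1d1 (0.58) and Sphk2 of Dbp (0.42), chosen after their values were seen, were higher as well.

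Other output and repressor genes rose less. Tef was at 1239, 1366 and 1565 normalized reads in Samhd1 Sting dKO libraries and at 485, 408 and 454 in WT libraries (log2 change 1.63, SE 0.245, adjusted p = 0.00374). Nr1d2, the paralog of Nr1d1, rose by 1.78 on the log2 scale (SE 0.365, adjusted p = 0.0162). Per3 was at 618, 619.9 and 842 in Samhd1 Sting dKO libraries and at 362, 284 and 248 in WT libraries (1.22, adjusted p = 0.00525). None of these 3 genes overlapped between the groups. Cry2 (0.78) and the repressor Bhlhe40 (0.68) were also higher. Nfil3, the repressor at D-boxes, was the 1 lower gene, at 773, 944 and 659 in Samhd1 Sting dKO libraries and 1539, 1743 and 1395 in WT libraries (-0.99, SE 0.125, adjusted p = 0.0017).

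The core activators and the remaining period genes were not called. Arntl was at 849.9, 799.9 and 872 normalized reads in Samhd1 Sting dKO libraries and at 697, 800.0 and 754 in WT libraries (log2 change 0.17, adjusted p = 0.371). Clock had 0.17 (adjusted p = 0.214), Per2 0.35 (adjusted p = 0.532), Per1 -0.40 (adjusted p = 0.530) and Cry1 -0.72 (adjusted p = 0.171). The time of day of sampling is not in the labels and was not tested. Against the other mutants, Dbp and Tef were also higher in Samhd1 Sting dKO than in Samhd1 Cardif dKO (2.64 and 1.49, adjusted p = 0.0327 each), and than in Samhd1 KO (2.50, adjusted p = 0.00671, and 1.10, adjusted p = 0.0236). Nr1d1 was higher than in Samhd1 KO (2.40, adjusted p = 0.0176), but against Samhd1 Cardif dKO it missed the threshold (1.69, adjusted p = 0.157). Among libraries of the other mutants the level varied with the replicate, at 645, 117 and 438 normalized reads of Nr1d1 for Samhd1 KO and 925, 374 and 418 for Samhd1 Cardif dKO.

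The E-box CACGTG and the D-box TTATGTAA, which do not overlap in these windows, were searched on both strands in the same RefSeq promoters. Of the 8 called clock genes, 7 had a promoter in the table; 1 held an E-box, against 6.02% of all promoters, and 1 a D-box, against 0.819%. Of the 16 tested clock genes, 14 had a promoter in the table, and 5 of these held an E-box. The 2 called genes with an element are shown because their own promoters carry an element of the loop. Tef is on the plus strand at chr15:81802526-81802571 and Per3 on the minus strand at chr4:151044796-151044890 (GRCm38.p6), with the elements in capitals.
Tef: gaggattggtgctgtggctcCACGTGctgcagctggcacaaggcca
Per3: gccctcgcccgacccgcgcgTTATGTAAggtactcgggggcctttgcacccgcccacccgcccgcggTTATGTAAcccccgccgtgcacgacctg

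Classic glucocorticoid-responsive genes included the largest falls of the comparison at substantial levels. Fkbp5, which encodes a cochaperone that dampens the glucocorticoid receptor, was at 1425, 343 and 258 normalized reads in Samhd1 Sting dKO libraries and at 6106, 6141 and 7119 in WT libraries (log2 change -3.68, SE 0.656, adjusted p = 0.00856). Samhd1 Sting dKO replicate 1 was the highest of its group and still far below WT. Zbtb16, a transcription factor gene also named PLZF, was at 1000.5, 711 and 615 in Samhd1 Sting dKO libraries and at 3492, 3844 and 4181 in WT libraries (-2.33, SE 0.283, adjusted p = 0.00132). These were the 2 calls among 17 tested genes of the list (median -0.19), against 2.93% of all genes lower, so most of the list did not pass the test. Fkbp5 varied over the other mutants, at 2589, 1038 and 729.5 normalized reads for Samhd1 Cardif dKO and 4112, 1623 and 911 for Samhd1 KO, and its difference from either was not called (-1.32 and -1.86). Zbtb16 was lower than in Samhd1 KO (-1.33, adjusted p = 0.0191), but its difference from Samhd1 Cardif dKO was not called (-0.60, adjusted p = 0.332). In Samhd1 Cardif dKO it was itself lower than in WT (-1.73, adjusted p = 0.0165). Of the 17 genes, 3 were lower in Samhd1 Cardif dKO than in WT (0.71% of all genes) and 0 in Samhd1 KO (1.62% of all genes).

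**Figure D4:**
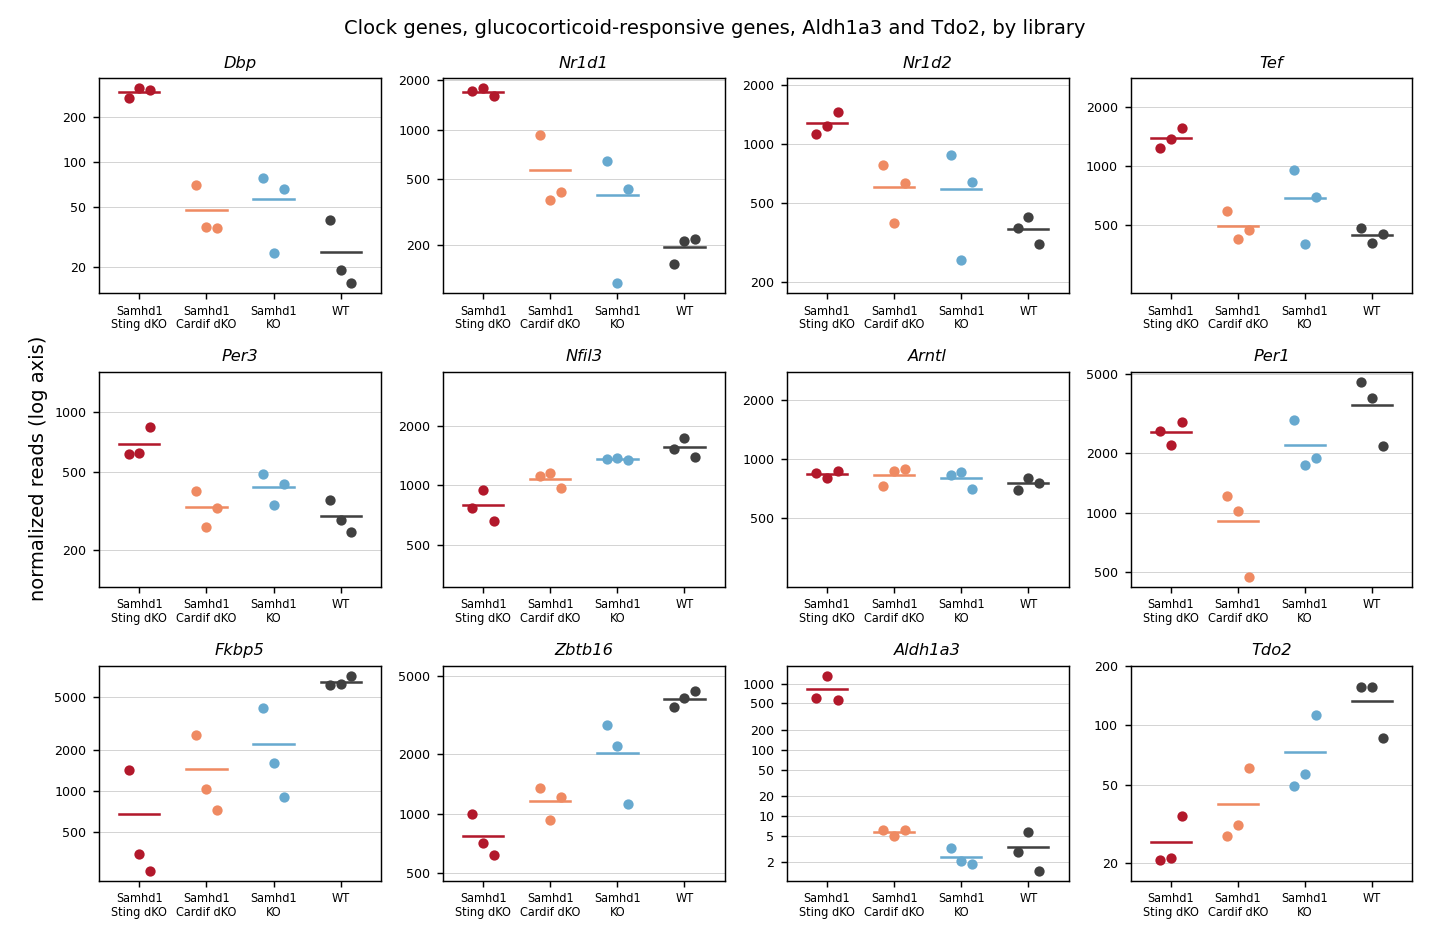
Normalized reads on a log axis for 8 clock genes, the glucocorticoid-responsive genes Fkbp5 and Zbtb16, and the genes Aldh1a3 and Tdo2, in each of the 12 libraries. Points are libraries, 3 per genotype, and short lines are group means; the Samhd1 Sting dKO points stand above WT in Dbp, Nr1d1, Nr1d2, Tef, Per3 and Aldh1a3, below WT in Nfil3, Fkbp5, Zbtb16 and Tdo2, and overlap with WT in Arntl and Per1.

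Chaperones of the endoplasmic reticulum (ER) were lower as a block. Misfolded proteins in the ER activate ATF6, IRE1 with XBP1, and PERK with ATF4, and the first pair of arms raises chaperones, foldases and ER-associated degradation. Of 19 tested genes of that kind, 15 were lower in Samhd1 Sting dKO, against 2.93% of all genes (median -0.62). All 19 lay lower in each Samhd1 Sting dKO library than in any WT library, against 13.9% of all genes. Of 7 genes of the PERK and ATF4 arm, 0 were called (median -0.06). WT replicate 3 was the highest WT library for 14 of the 19. The 15 calls ranged from 11 to 15 when 1 library was left out and came to 8 with the B cell marker mean as a covariate.

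Hspa5, the ER chaperone BiP, was at 17673, 19679 and 15657 normalized reads in Samhd1 Sting dKO libraries and at 37234, 38972 and 50592 in WT libraries (log2 change -1.25, SE 0.136, adjusted p = 0.000897). Herpud1, which serves ER-associated degradation, was at 1928, 1788 and 1553 in Samhd1 Sting dKO libraries and at 3794, 3922 and 5659 in WT libraries (-1.32, SE 0.136, adjusted p = 0.000679). The gaps were larger than the spread within either group. Syvn1, the ligase HRD1, had -1.03 (adjusted p = 0.00336), Hsp90b1, the chaperone GRP94, -0.48 (adjusted p = 0.00363) and the stress-induced secreted factor Manf -1.25 (adjusted p = 0.00506). The transcription factor gene Xbp1 fell by 0.45 on the log2 scale (adjusted p = 0.0292). The others were Dnajb9, Edem1, Hyou1, Creld2, Pdia4, Dnajc3, Dnajb11, Sel1l and Pdia6, between -1.18 and -0.43. None of the 26 genes of the list was called between Samhd1 Sting dKO and either other mutant; against the same WT libraries, 7 were lower in Samhd1 Cardif dKO (0.71% of all genes) and 14 in Samhd1 KO (1.62% of all genes). Without WT in the pair, the medians were -0.10 against Samhd1 Cardif dKO and -0.04 against Samhd1 KO.

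The ER stress element, the site of ATF6 with NF-Y, reads CCAAT and CCACG with a spacer of NNNNNNNNN between them and was searched on both strands in the same promoters. Of 24 matched genes of the 26 tested, 8 held it, and of 13 matched genes of the 15 called, 6 did (46.2%), against 0.113% of all promoters. The 6 were Hspa5, Syvn1, Hsp90b1, Creld2, Dnajc3 and Pdia6. Hspa5 and Syvn1 are shown as the called genes with the lowest adjusted p among them, both on the plus strand, at chr2:34772005-34772063 and chr19:6046512-6046570 (GRCm38.p6), with the element in capitals.
Hspa5: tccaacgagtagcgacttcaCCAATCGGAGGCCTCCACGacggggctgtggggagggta
Syvn1: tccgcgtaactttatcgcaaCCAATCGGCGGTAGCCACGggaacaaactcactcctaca

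Genes of the heat shock response, which HSF1 drives and which encode mostly cytosolic chaperones, formed another list. Of 20 tested genes 9 were lower, against 2.93% of all genes, and 1 was higher, against 3.57% (median -0.63), and with the B cell marker mean as a covariate 4 were lower. Hspa8, the constitutive HSP70, was at 6732, 6950.1 and 5412 normalized reads in Samhd1 Sting dKO libraries and at 13893, 14257 and 16194 in WT libraries (log2 change -1.22, SE 0.107, adjusted p = 0.000219). Hsph1, an HSP110 exchange factor, was at 753, 678 and 391 in Samhd1 Sting dKO libraries and at 1846, 2129 and 2758 in WT libraries (-1.92, SE 0.226, adjusted p = 0.00117). Neither gene overlapped between the groups, and for Hsph1 Samhd1 Sting dKO replicate 3 was the lowest. The inducible HSP70 gene Hspa1b was lower (-1.74), and the authors' counting could split reads between it and its near copy Hspa1a. Chordc1 (-0.81), Dnaja1 (-0.86), Dnajb1 (-0.76), Stip1 (-0.86), Hspe1 (-0.52) and Ahsa1 (-0.41) were also lower, and Hspa4 was higher (0.33, adjusted p = 0.0204). Of these, Hspa8 (-0.55, adjusted p = 0.0120) and Dnajb1 (-0.38, adjusted p = 0.0329) were also lower than in Samhd1 KO. No gene of the list was called between Samhd1 Sting dKO and Samhd1 Cardif dKO. Against the same WT libraries, 9 of the 20 were lower in Samhd1 KO (1.62% of all genes) and 7 in Samhd1 Cardif dKO (0.71% of all genes). Without WT in the pair, the list medians were -0.15 against Samhd1 KO and -0.12 against Samhd1 Cardif dKO. The heat shock element core, in which GAA, TTC and GAA follow each other spaced by NN, was searched in the same way and was found in 1 of the 9 called genes with a promoter, against 0.466% of all promoters. That gene was Hspe1, the mitochondrial HSP10, shown on the plus strand at chr1:55088039-55088096, where a pair of overlapping matches is in capitals.
Hspe1: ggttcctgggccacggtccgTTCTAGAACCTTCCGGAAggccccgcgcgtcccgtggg

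**Figure D5:**
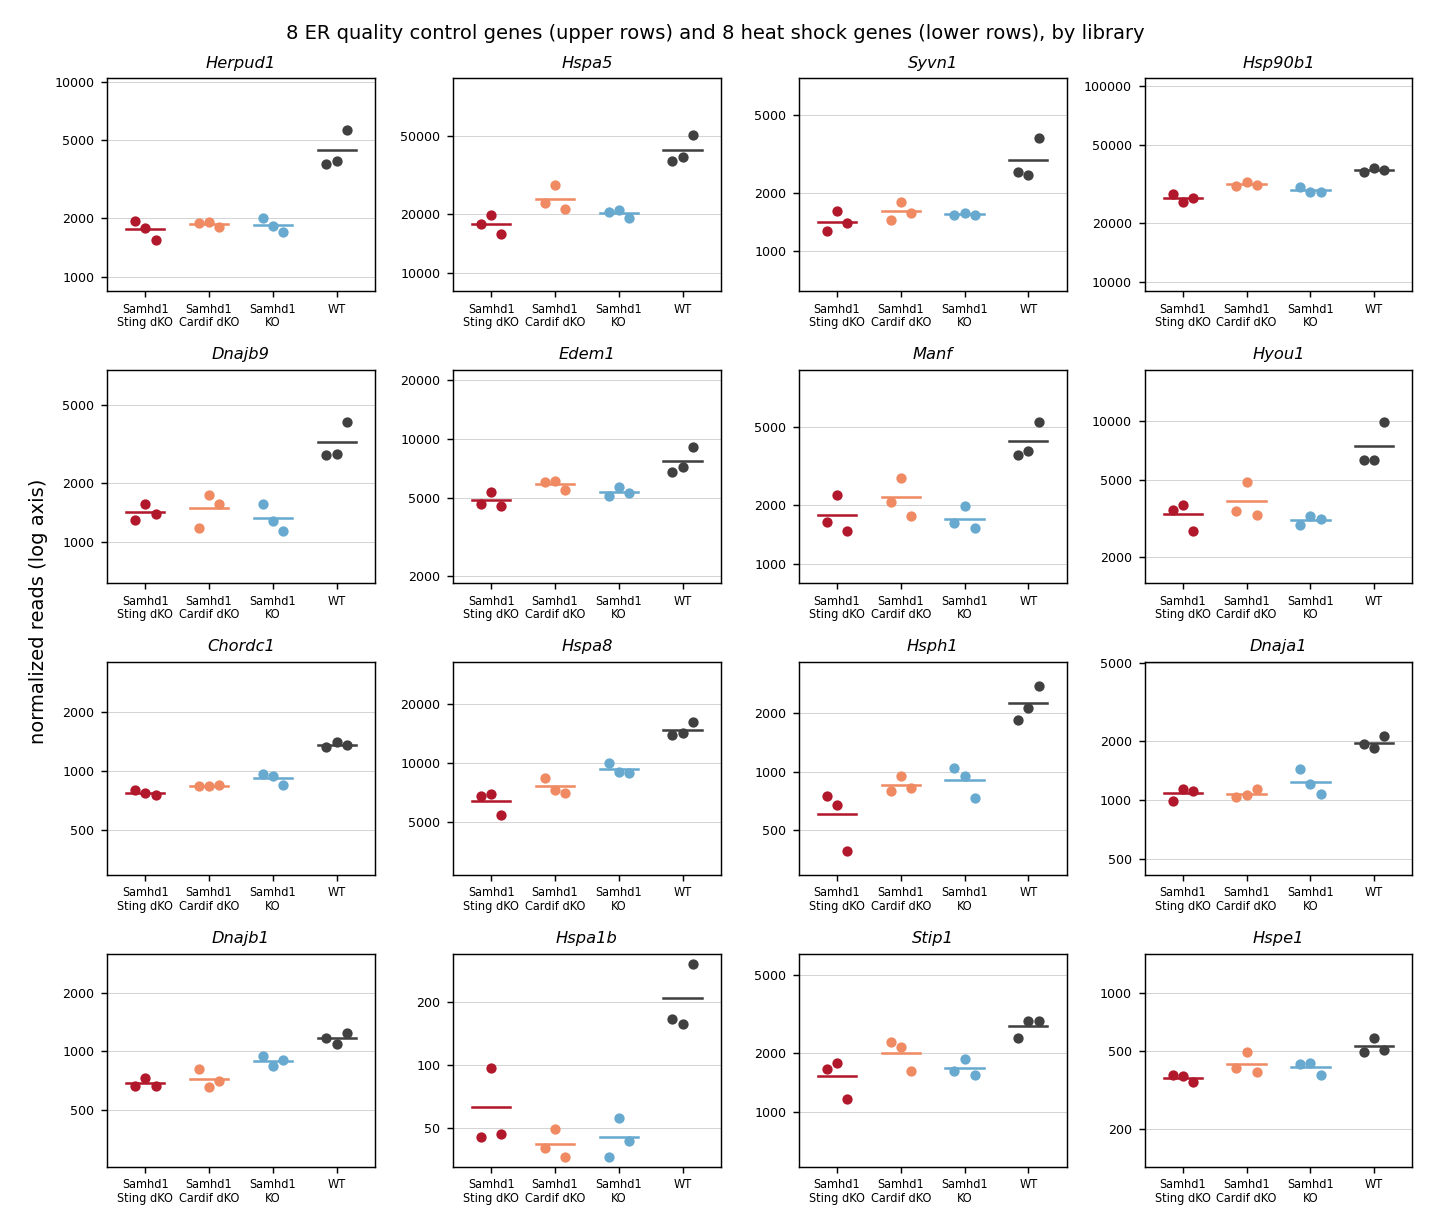
Normalized reads on a log axis for 8 ER quality control genes (upper rows) and 8 heat shock genes (lower rows), each the lower-called genes of its list with the smallest adjusted p, in all 12 libraries. Points are libraries, 3 per genotype, and short lines are group means; every Samhd1 Sting dKO point lies below every WT point in the 16 panels, and the means of the other mutants are also below the WT mean in each.

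Immediate early genes, which respond to stimuli within minutes, moved in both directions. Of 23 tested, 5 were higher, against 3.57% of all genes, and 2 were lower, against 2.93% (median 0.38). Nr4a1, an orphan nuclear receptor gene, was at 472, 876 and 572 normalized reads in Samhd1 Sting dKO libraries and at 117, 257 and 274 in WT libraries (log2 change 1.61, SE 0.343, adjusted p = 0.0188). Its groups did not overlap. Egr2 (1.72), Jund (0.64), Junb (0.63) and Myc (0.67) were also higher, and the call of Myc held in 10 of 25 alternative settings. Rgs1, a brake on G protein signalling, was at 91.3, 103 and 119 in Samhd1 Sting dKO libraries and at 436, 531 and 205 in WT libraries (-1.79, adjusted p = 0.0109), and Btg2 was lower (-0.39). Against the same WT libraries, Rgs1 was also lower in Samhd1 KO (-1.87, adjusted p = 0.0110), and in Samhd1 Cardif dKO it missed the threshold (-1.51, adjusted p = 0.0553). The list of inflammatory cytokines and targets of NF-kB held 2 higher and 2 lower genes among 36, against 3.57% and 2.93% of all genes. The costimulatory receptor Cd40 was at 1556, 1084 and 1196 in Samhd1 Sting dKO libraries and at 723, 637 and 659.6 in WT libraries (0.91, SE 0.116, adjusted p = 0.0017), and the NF-kB cofactor Bcl3 rose by 1.21 on the log2 scale. The chemokine gene Cxcl2 (-0.93) and the apoptosis inhibitor Birc3 (-0.75) fell. Cd40 is also expressed by B cells, whose markers were higher in the same libraries, and with their mean as a covariate its log2 change was 0.72 (adjusted p = 0.0886).

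Of 46 tested genes of resident large peritoneal macrophage identity, 3 were higher, against 3.57% of all genes, and 0 were lower, against 2.93% (median -0.06). The 3 higher genes encode transcription factors. Klf4 was at 2408, 4313 and 3597 normalized reads in Samhd1 Sting dKO libraries and at 965, 1372 and 1005 in WT libraries (log2 change 1.603, SE 0.231, adjusted p = 0.00336). Every Samhd1 Sting dKO library stood above WT. Bhlhe40, described with the clock genes, rose by 0.68 on the log2 scale. Among 24 genes that mark monocytes, dendritic cells or small peritoneal macrophages, Nr4a1 and Kmo (2.80, from 81 reads over the Samhd1 Sting dKO libraries and 20 over the WT libraries, called in 9 of 24 alternative settings) were higher and the Fc receptor gene Fcgr1 was lower (-0.75). C5ar1, the receptor of complement C5a, was the 1 gene called higher (0.64) among 20 complement and Fc receptor genes, where Fcgr1 was the 1 called lower. The counts of both lists stand against 3.57% of all genes called higher and 2.93% called lower.

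Of 32 p53 targets, 3 were lower, against 2.93% of all genes, and 1 was higher, against 3.57%. The lower genes were Fas, a death receptor (-0.66), Btg2 and the cyclin gene Ccng1 (-0.39 each), and the higher one was the BH3-only gene Bbc3 (0.73). Fas was at 639, 574 and 565 normalized reads in Samhd1 Sting dKO libraries and at 974, 940.4 and 898 in WT libraries, with no overlap. Of 28 genes of deoxynucleotide metabolism, 2 were lower, against 2.93% of all genes. These 2 were Samhd1 and the purine nucleoside phosphorylase gene Pnp (-0.47, adjusted p = 0.0242). No gene of DNA replication (33 tested, median -0.53) or of mitosis (33 tested, median -1.04) was called by limma, edgeR or DESeq2, and at an unadjusted p under 0.05 limma gave 0 and 1, although all 33 mitosis genes had a negative change. The mean log2 level of the mitosis list was 6.82, 6.39 and 5.41 in Samhd1 Sting dKO libraries and 7.41, 8.47 and 5.83 in WT libraries, so the groups overlapped and WT spanned the wider range. Of 28 cholesterol genes, 25 had a positive change (median 0.32) and 2 were higher, against 3.57% of all genes. These 2 were the synthesis gene Hsd17b7 (1.11) and the lipogenic factor gene Srebf1 (0.32).

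The other large changes named by size fell in no list. Among the rises were the growth factor gene Pdgfb, at 142, 136 and 156 normalized reads in Samhd1 Sting dKO libraries and 36.0, 25.8 and 37.8 in WT libraries (log2 change 2.11, SE 0.291, adjusted p = 0.0028), the cell cycle arrest gene Rprm (2.31), the adaptor gene Sh2b2 (1.98), the ligand gene Wnt4 (1.96), the calcium pump gene Atp2b4 (1.95), the zinc finger factors Glis2 (1.82) and Gfi1b (1.80), and the ubiquitin ligase gene Mid1 (1.78). Among the falls were Tdo2, an enzyme of tryptophan breakdown, at 20.9, 21.4 and 34.6 in Samhd1 Sting dKO libraries and 156, 157 and 86.7 in WT libraries (-2.32, SE 0.384, adjusted p = 0.00581), the kinase gene Wee1, a brake on entry into mitosis (-2.01), Tppp (-1.85), Fbxl22 (-1.69), Mospd4 (-1.603), Plcxd2 (-1.58), Zfp9 (-1.58), the transporter gene Slc10a6 (-1.57) and the cell cycle inhibitor locus Cdkn2a (-1.49). The call of Wee1 held in 9 of 25 alternative settings, with a log2 change between -2.51 and -0.84, and was lost without WT replicate 1 or 2, any 1 Samhd1 Sting dKO or Samhd1 KO library, or Samhd1 Cardif dKO replicate 2. In each of these genes the 3 libraries of one group lay above the 3 of the other. Some were also called in Samhd1 Cardif dKO and Samhd1 KO against the same WT libraries. In that order of groups, Pdgfb had 1.72 and 1.79, Glis2 0.96 and 1.00, Zfp9 -1.66 and -1.84, and Slc10a6 -1.59 and -1.57. Mid1 was called in Samhd1 KO (1.52) but not in Samhd1 Cardif dKO (1.52, adjusted p = 0.0803). Cdkn2a was called in Samhd1 KO (-1.54) but not in Samhd1 Cardif dKO (-0.58, adjusted p = 0.255). Below the level used for naming, and chosen after the values were seen, Ptprd was read 0, 1 and 0 times in Samhd1 Sting dKO libraries and 118, 80 and 54 times in WT libraries, and it was at 0 to 1 read in each of the other mutant libraries as well. No fold is given for it.

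Few genes set Samhd1 Sting dKO apart from every other genotype. Of the 472 genes higher than in WT, 134 were also higher than in Samhd1 KO and 17 than in Samhd1 Cardif dKO. Of the 388 lower genes, 89 were also lower than in Samhd1 KO and 8 than in Samhd1 Cardif dKO. Called the same way against all 3 groups were 16 higher and 8 lower genes. The higher ones included Aldh1a3, Dbp, Tef and the B cell genes Btla, Cd22, Ebf1 and Igh-6. The lower ones were Lgals3bp, Herc6, Usp18, Trim30a, Ifi27l2a, Ifi27l2b, the interferon-inducible p200 family gene Pyhin1 and Banp, a nuclear DNA-binding protein gene. For members of the interferon list, the calls against Samhd1 Cardif dKO depended on tool and library. They came to 0 by edgeR or with age as a covariate. Banp was at 345, 319 and 258 normalized reads in Samhd1 Sting dKO libraries and at 692, 664 and 790.1 in WT libraries (log2 change -1.22, adjusted p = 0.000335). The 3 comparisons share the Samhd1 Sting dKO libraries, and Banp and Pyhin1 were named after their values were seen.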

How the data were processed

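Gene-level values of sorted peritoneal macrophages were analysed for 12 libraries, of which 3 Samhd1 Sting dKO and 3 WT libraries form the comparison. The deposited values are a signal: the authors took reads over Ensembl 61 genes on mm9, per the file headers, and scaled each library by 1 size factor. Tools listed by the submitters' processing notes are bedtools 2.16.2 and DESeq 1.6.1, with no aligner stated. Reads were recovered, since 100% of values in each library were whole steps of its smallest one (tolerance 1e-04). For Samhd1 Cardif dKO replicate 2 that step was 1.00, and this library was kept out of the count tests alone. The table lists no gene without a read in the 6 dKO libraries, so a gene silent there is not analysed here. The authors' deposited fold, log2 and p-value columns set the dKO groups against each other and were not used.

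Values were taken as log2(normalized reads + 1). Limma 3.58.1 (R 4.3.3, trend option, 1 mean for each of the 4 genotypes, 8 residual degrees of freedom) was run on the 12 libraries together and adjusted over 13231 genes; adjusted p in the text is limma's unless another tool is named. Scripts were tested on simulated data. Alternatives were edgeR 4.0.16 and DESeq2 1.42.0 on the recovered reads of 11 libraries, other size factors, filters and pseudocounts, the 6 libraries alone, age, B cell or mitosis list means as covariates, a replicate block and each library left out in turn.

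The comparison and the gene lists were chosen with earlier results of these data known. The lists hold 688 genes, of which 629 were in the table (19 by alias or identifier) and 582 were tested. Named are Samhd1, Tmem173 and Mavs, the 15 largest rises and 15 largest falls among called genes averaging 50 or more normalized reads with groups that do not overlap, and in each list the 4 members with the lowest adjusted p; unlisted Xist, Y-linked, antigen receptor and symbol-less genes were left out. Further called list members are also named, some genes are not reported here, and other genes were chosen after their values were seen, among them Isg15, Oas3, Oasl1, Irf7, Arntl, Clock, Per1, Per2, Cry1, Cd79a, H2-Aa and H2-Ab1. Promoter sequences and starts are RefSeq's (GRCm38.p6), another build than that of the counts.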

Additional observations from a re-analysis of the deposited data

How the results depend on the processing

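Of 112 called genes followed through the settings, 0 changed direction in the settings tried and 30 were called in each of their settings. The count of genes higher than in WT (472) was 744 by DESeq2, 211 with age and 67 with the B cell marker mean as a covariate. The count lower (388) was 561 by DESeq2, 212 with age and 74 with the B cell marker mean. For interferon genes lower than in WT (11), DESeq2 gave 22, age 5, the mitosis list mean 23 and the replicate block 7. The count lower than in Samhd1 KO (73) was 12 with the B cell marker mean. Lower than in Samhd1 Cardif dKO (7) were 16 by DESeq2, 1 with the replicate block, and 0 by edgeR under both factors, with age, or with the B cell marker mean. With the B cell marker mean, ER genes (15) came to 8, heat shock genes (9) to 4 and clock genes (7) to 3. B cell markers (8) came to 0 there, which tests nothing, since their own mean is the covariate. B cell markers came to 14 by DESeq2, 4 with a filter at 5 CPM, 2 with age and 5 with the mitosis mean. The causes were not tested.

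With 1 library left out, the counts ran from 196 to 501 higher, 156 to 403 lower, 6 to 20 for interferon genes against WT, 61 to 77 against Samhd1 KO and 0 to 11 against Samhd1 Cardif dKO. ER genes ran from 11 to 15, heat shock genes from 7 to 11, clock genes from 5 to 7 and B cell markers from 2 to 11; the log2 change of Samhd1 ran from -1.73 to -1.47 and that of Tmem173 from 0.02 to 0.12. Without Samhd1 KO replicate 3, Samhd1 Cardif dKO replicate 1 or WT replicate 1, the count against Samhd1 Cardif dKO was 3; leaving out replicate 2 or 3 of Samhd1 Sting dKO gave 1.

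Genes that were not called changed sign with the B cell marker mean (Tmem173 -0.0039, Cd2 -0.512, Hdc 0.163, Il5ra -0.798, Prtn3 0.258, Cd79a -0.386), with age (Mavs -0.0382, Csf3r 0.0100, Per2 -0.0229), with the mitosis mean (Prtn3 0.0525) or without 1 library, where Mavs ran from -0.00256 to 0.193, Prtn3 from -0.246 to 0.0607, Mmp9 from -0.0251 to 1.25 and Itga2b from -0.0986 to 0.263. Same-numbered Samhd1 Sting dKO and WT libraries had correlations of their deviations of -0.0165, 0.106 and 0.175, so the numbers were not taken to pair samples; with the block, 428 genes were higher and 367 lower. Cd79a is itself among the B cell markers, so its sign with their mean as covariate carries no weight. Depth limits genes of few reads, and B cell markers and age differ between the groups.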
